A study of Mus musculus with 30 samples.

Results

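The members are transcription factors of the nuclear receptor, homeobox, forkhead, POU domain and SRY-box families, with proteins named for binding nuclear receptors, followed in mouse AtT-20 cells during CRH treatment. A cDNA spot was a member when its gene name in the scanner files began with a family term such as nuclear receptor, retinoid X receptor, estrogen, forkhead, homeo box, LIM homeobox, paired, POU domain or SRY-box. This gave 145 of 22830 gene spots, with 109 names, of which 108 carried a gene symbol. The rule thus takes spots by name and uses no measured value, though the choice was made with earlier results of these data known. Because the choice was by name, it also took in proteins that are not transcription factors, among them the proprotein convertase Pcsk6, the mitochondrial enoyl-CoA reductase Mecr and the RNA cap methyltransferase Tgs1.

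Nuclear receptors are transcription factors switched by small lipophilic ligands such as steroids, thyroid hormone and retinoids, and they act through coactivators and corepressors. Homeodomain, forkhead, POU and SRY-box proteins bind DNA without a ligand and set up cell lineages; in the pituitary, Pitx1 and Lhx3 belong to the set that forms the hormone cells, Sox2 marks pituitary progenitors, and Nr4a1 is an immediate early receptor known to act on the Pomc gene. CRH acts on corticotropes through a G protein-coupled receptor and cAMP, and glucocorticoids acting on the receptor Nr3c1 feed back on the same cells.

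AtT-20 is a corticotrope cell line from a mouse pituitary tumour. Cells deprived of serum were given 100 nM human/rat CRH for 1, 3, 6, 12 or 24 h, and untreated cells, equally deprived of serum, were harvested at the same times. RNA of CRH-treated and untreated cells was hybridised together on dual-colour cDNA arrays, 6 arrays at each of 5 time points, with CRH RNA in Cy3 on 3 of them and in Cy5 on the other 3. Values are log2 ratios of CRH-treated over untreated cells, so a positive value is higher with CRH.

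Each time point rests on 1 pair of RNA extracts hybridised 6 times, so a p-value over arrays measures the spread between hybridisations and not between cultures. Array medians lay between 481.8 and 2174.7 intensity units, and how precise a mean can be depends on the number of arrays and on the spread between them. The days of quantification nearly coincide with the time points. Only 3 h and 6 h lie within 1 day with both dye orientations, so time and day cannot be told apart for the other times. Of the corticotrope markers 8 of 12 spots were above the dim limit on all arrays, Pomc and Tbx19 among them, with the single Gh spot, 6 of 12 fibroblast and 3 of 6 leukocyte marker spots, so being measured here does not by itself identify the cell type.

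A spot was called dim, and was left out of all tests, where it fell in the lowest 10% of an array in either channel on any of the 30 arrays. Of the members, 80 spots of 63 genes stayed, that is 55.2% of spots, against 63% of all gene spots. The other 65 were dim, 18 of them on a single array, 23 on 2 to 5 arrays and 10 on 20 or more. Measured spots were 17 of 38 among receptors, 23 of 36 among cofactors and receptor-binding proteins, 18 of 31 among homeobox and paired genes, 7 of 17 among forkhead genes, 7 of 8 among POU genes and 8 of 14 among SRY-box genes. The single Pcsk6 spot was dim.

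Many of the best known members were dim only. The spot of the CRH-responsive receptor Nr4a1 was dim on 3 arrays, that of its relative Nr4a3 on 22, and the spot listed under the older name Nurr1, which the name rule does not take, on 3. The mineralocorticoid receptor Nr3c2, the retinoid receptors Rxra, Rxrg, Rara and Rarg, the fatty acid sensors Ppara and Pparg, the thyroid hormone receptor Thrb, the orphan receptor Nr2f2 and the progenitor factor Sox3 were likewise dim, Ppara on 24 arrays and Rarg on only 1. No ratio is given for them.

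The measured members moved little. Their median ratio was 0.03, -0.04, -0.02, 0.01 and -0.07 in the order of the 5 times, and the medians over all measured features lay between -0.02 and 0.00. The largest mean ratio of a member in either direction had a median size of 0.22, the same as over all features. The SD over 6 arrays had a median from 0.301 to 0.367 over members, depending on the time, so most means lay within the spread of single arrays. Only 5 of the 80 members reached a mean of at least 0.4 in size at any time.

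**Figure D1:**
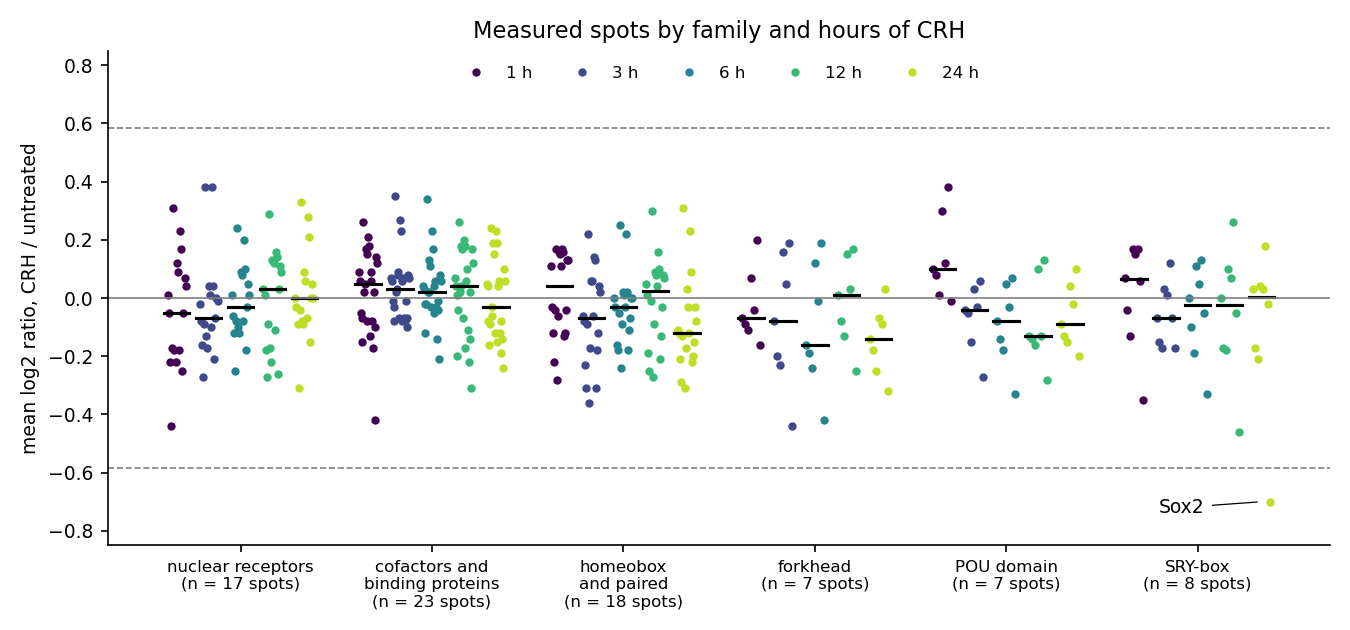
Mean log2 ratio of CRH-treated over untreated cells (vertical axis) for each of the 80 measured spots, by family (horizontal axis) and hours of CRH (colour). Points are means of 6 arrays, black bars are family medians and dashed lines mark a 1.5-fold difference; the Sox2 spot at 24 h, at -0.70, is the only point beyond them.

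Sox2, the SRY-box factor of pituitary progenitors, had the lowest ratio of all members. It is a gene without introns at chr3:34649995-34652461 (GRCm38.p6), and its spot, number 307 in the scanner files, was measured on all 30 arrays. The 6 arrays at 24 h ran from -1.57 at the lowest, through a median of -0.60, to -0.09 at the highest. All of them were below 0, and the mean of -0.70 ± 0.53 (SD, n = 6) is 0.616-fold.

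From 1 to 12 h the means of Sox2 were -0.35 ± 0.16, -0.07 ± 0.31, -0.33 ± 0.44 and -0.46 ± 0.61 (SD, n = 6 each). Every array was below 0 at 1 h as well, whereas at 3, 6 and 12 h arrays lay on both sides of 0, between -0.61 and 0.23, between -0.76 and 0.22, and between -1.08 and 0.48. In all, 23 of the 30 arrays were below 0 and the mean was below 0 at each of the 5 times. The depth of the ratio went with the dye. At 24 h the arrays with CRH RNA in Cy5 gave -1.57 to -0.76 and those with CRH RNA in Cy3 gave -0.44 to -0.09, so the orientations did not overlap although both were below 0. At 12 h the corresponding means were -0.89 in Cy5 and -0.03 in Cy3. The part of the dye in this result was not tested beyond the time-by-dye interaction, for which the linear model gave an unadjusted p of 0.0813. The test of change over time gave Sox2 a p of 0.053 in the linear model.

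Over the 5 time points, taken as the independent units, Sox2 averaged -0.38 with an SE of 0.08. The limma test gave an unadjusted p of 0.00014 and an adjusted p of 0.116, which does not pass, and 0 of 80 members passed this test, against 8 of 14375 features or 0.0557%. Leaving out the 1 h values gave Sox2 an adjusted p of 0.0413 by limma and leaving out 3 h gave 0.0482, while leaving out 6, 12 or 24 h gave 0.543, 0.999 and 0.542. A second Sox2 spot was dim on 23 arrays and offers no check.

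By the size rule, a mean difference of at least 1.5-fold and no array of the opposite sign, Sox2 at 24 h was the 1 member called lower, against 7 features or 0.0487%. No member was called in any other direction or time, where the share over all features was 0.104% higher and 0.0974% lower at 1 h, 0.16% and 0.0209% at 3 h, 0.0348% and 0% at 6 h, 0.118% and 0.0209% at 12 h, and 0.0974% higher at 24 h. This rule is not a test, since a time point has 1 pair of extracts. Without replicate 4 the mean of Sox2 at 24 h was -0.58, short in size of the log2 value of 0.585 that the rule asks for.

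The stretch directly before the Sox2 start, shown because Sox2 carried the lowest ratio, was searched for the cAMP response element TGACGTCA and for its shorter form TGACG on either strand, CGTCA being the reverse. It holds neither. The sequence is RefSeq's for GRCm38.p6, plus strand, chr3:34649745-34649994.
Sox2 promoter: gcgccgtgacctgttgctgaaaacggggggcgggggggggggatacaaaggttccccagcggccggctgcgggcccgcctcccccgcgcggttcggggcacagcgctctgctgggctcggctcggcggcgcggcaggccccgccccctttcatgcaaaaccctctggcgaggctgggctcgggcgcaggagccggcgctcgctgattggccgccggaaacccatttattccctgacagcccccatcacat

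The question put to the time course was which genes changed their CRH response over time. In the study's design, features whose response depended on both time and dye orientation are set aside first, by an F test of the interaction at p below 0.01. This set aside 7 of 80 members, or 8.75%, against 14.8% of all features. Of the other 73, a linear model with time and dye found 7 that changed over time at p below 0.01, or 9.59%, against 8.5% of features. After Benjamini-Hochberg adjustment over all features tested for change over time, 1 remained at 0.05, or 1.37%, against 3.99%. The share of members called was thus near that of all features at the unadjusted threshold. The count of 7 ranged from 2 to 7 when 1 replicate of each time point was left out in turn. With 1 loess curve per array only Foxa1 and Rxrb of the 7 were called, and with the day of quantification as a block 0 of the 7 were. All 1 h arrays, and no others, were quantified on 1 day, so this block cannot test the 1 h values. It compares only 3 h with 6 h, and 24 h with the few 12 h arrays quantified on the same day as 24 h.

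**Figure D2:**
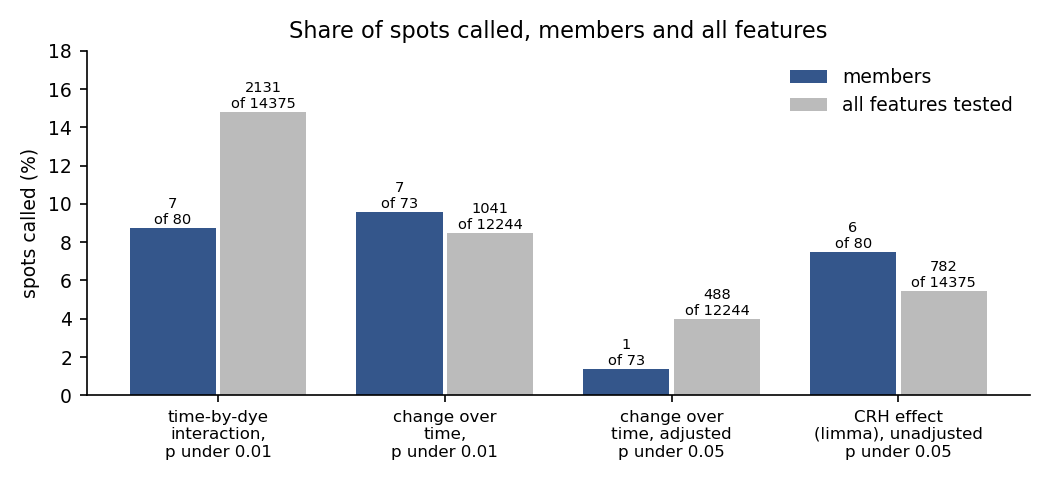
Share of spots called (vertical axis, percent) by 4 rules (horizontal axis), for members (left bar of each pair) and all features tested (right bar). The members stand at 7 of 73 against 1041 of 12244 for change over time at p below 0.01, and at 7 of 80 against 2131 of 14375 for the interaction.

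Esr1 and Rxrb were among the receptors that changed over time. Esr1, estrogen receptor alpha, had its lowest ratio at 1 h. The 6 arrays ran from -1.02 through a median of -0.36 to -0.03, all below 0, and averaged -0.44 ± 0.42. At 6 h they ran from 0.07 through 0.20 to 0.40, all above 0, and averaged 0.20 ± 0.13, so these 2 times did not overlap. The means at 3, 12 and 24 h were -0.09, -0.18 and -0.15. The linear model gave a p of 0.00639 and an adjusted p of 0.0928. Within the shared day, 6 h was 0.30 above 3 h, with an unadjusted p of 0.0246 and an adjusted p of 0.423 by the same kind of model. The time p was 0.0253, 0.0711 and 0.0443 without replicates 1, 2 and 4, 0.0139 with 1 loess curve per array and 0.167 with the day block. The day block cannot test the 1 h values, where Esr1 was lowest. Esr1 has another spot, which was dim on 4 arrays.

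Rxrb, the retinoid X receptor beta that pairs with many other receptors, was lowest at 12 h and highest at 24 h. At 12 h the arrays ran from -0.56 through -0.24 to 0.00, at 24 h from -0.15 through 0.24 to 0.93, and the means were -0.26 ± 0.21 and 0.28 ± 0.35 (SD, n = 6 each). None of the 12 h arrays was above 0 and 5 of 6 at 24 h were, with some overlap between the times. The p was 0.00988 and the adjusted p 0.117 by the linear model, the weakest of the 7. Among the runs with 1 replicate left out, the time p stayed below 0.01 only without replicate 5, at 0.00474, and without replicate 4 it was 0.0685. With the day block it was 0.0135.

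Of the other measured receptor spots 3 were set aside by the interaction test and the rest gave no call. Nr3c1, the glucocorticoid receptor, averaged 0.17, -0.13, 0.10, -0.09 and 0.00 from 1 to 24 h, with arrays on both sides of 0 at every time and a time p of 0.183 by the linear model. Rora, Esrra and the heme-binding clock repressor Nr1d1 stayed between -0.22 and 0.24 in mean ratio at all times, with time p of 0.585, 0.78 and 0.424 by the linear model. The thyroid hormone receptor Thra has 2 measured spots, which stood at -0.01 and 0.38 at 3 h and had time p of 0.37 and 0.255.

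Rarb, the retinoic acid receptor beta, which is itself a retinoid target, was set aside by the interaction test with a p of 0.000342 in the linear model but pointed the same way in both orientations at its extremes. At 3 h its arrays ran from 0.12 through 0.37 to 0.76, all above 0, with means of 0.54 where CRH RNA was in Cy3 and 0.22 in Cy5. At 24 h they ran from -0.56 through -0.26 to -0.11, all below 0, with means of -0.43 in Cy3 and -0.19 in Cy5. The 3 h and 24 h arrays did not overlap, and within the shared day 6 h was 0.44 below 3 h. Nr5a2, a receptor of bile acid and steroid gene control, was also set aside, with an interaction p of 0.00136, a mean of -0.22 at 1 h and 0.33 at 24 h, where all 6 arrays were above 0. Nr1i3, a xenobiotic receptor, was the other receptor set aside, with an interaction p of 0.00337.

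Among forkhead genes, Foxa1 changed over time. Foxa1, a pioneer factor that opens chromatin for steroid receptors, lies at chr12:57540628-57548029 (GRCm38.p6). Its arrays ran from -0.76 through a median of -0.45 to -0.01 at 6 h, and from -0.47 through -0.32 to -0.12 at 24 h. All 6 arrays were below 0 at 3, 6 and 24 h, but at 1 and 12 h they lay on both sides. The means were -0.04 ± 0.16, -0.23 ± 0.14, -0.42 ± 0.25, 0.01 ± 0.29 and -0.32 ± 0.14 from 1 to 24 h (SD, n = 6 each), with a p of 0.00291 and an adjusted p of 0.0604 by the linear model. The time p was 0.011, 0.0106 and 0.0468 without replicates 2, 5 and 6, and 0.0595 with the day block. In all, 25 of 30 arrays were below 0, and the mean over the 5 times was -0.20 with an SE of 0.07, for which limma gave an unadjusted p of 0.0105 and an adjusted p of 0.794.

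Foxo1, the insulin- and stress-regulated forkhead factor, had means between -0.11 and 0.16 and a time p of 0.403 by the linear model.

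**Figure D3:**
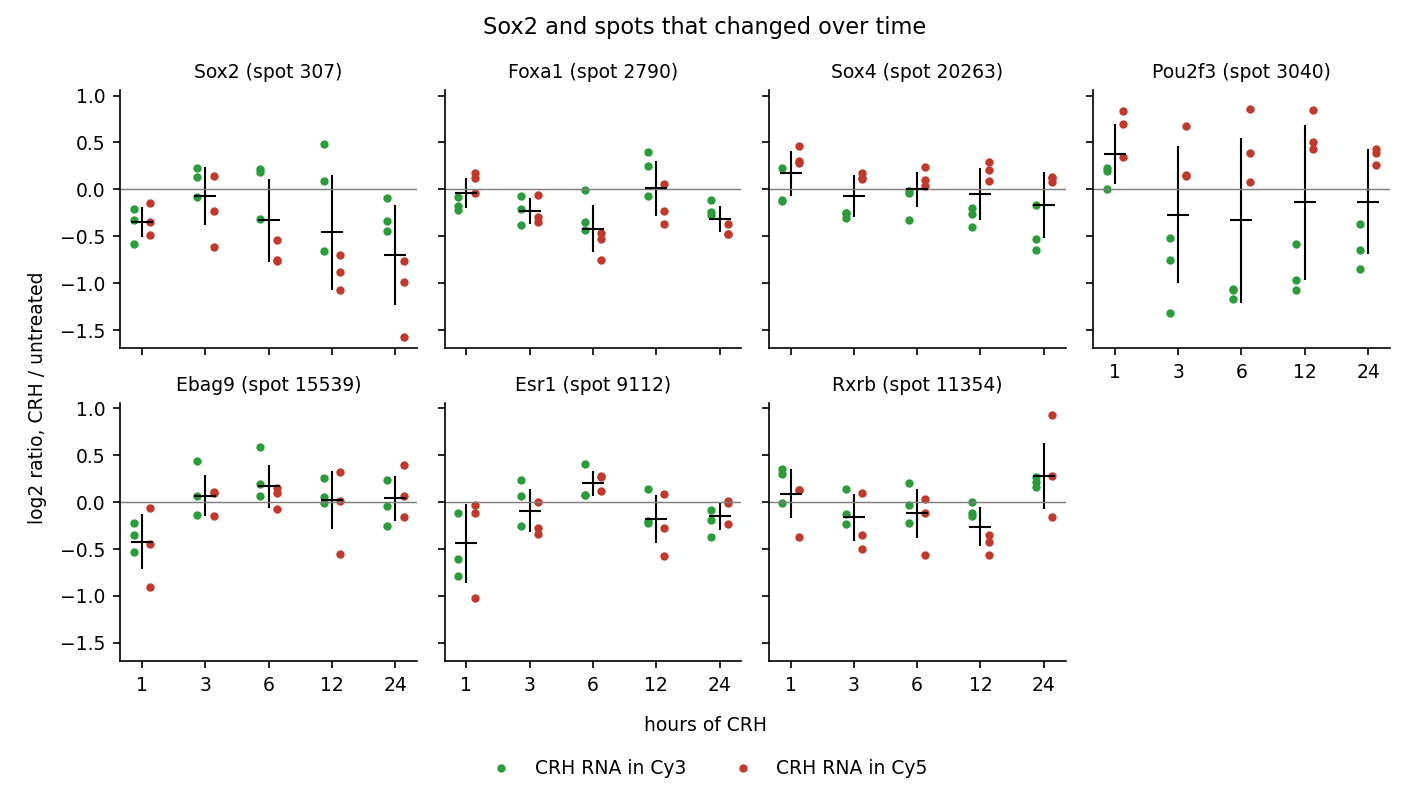
Log2 ratio of CRH-treated over untreated cells (vertical axis) on each array against hours of CRH (horizontal axis) for Sox2 and 6 of the spots that changed over time. Green points have CRH RNA in Cy3 and red points in Cy5; bars are the mean ± SD of 6 arrays. Sox2 at 24 h lies wholly below 0, and the orientations of Pou2f3 do not overlap at any of the 5 times, with the same sign at 1 h and opposite signs later.

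Pou2f3, the POU factor of tuft and skin cells, was above 0 on all 6 arrays only at 1 h, where they ran from a value that rounds to 0.00 through 0.29 to 0.83 and averaged 0.38 ± 0.32. At that time too the orientations did not overlap, with 0.35 to 0.83 in Cy5 and 0.00 to 0.23 in Cy3. At 6 h they ran from -1.17 through -0.49 to 0.86 and averaged -0.33 ± 0.88. The arrays with CRH RNA in Cy5 averaged 0.44 at 6 h and those in Cy3 averaged -1.10, so the sign at that time was that of the dye. The p for time was 0.00609 and the adjusted p 0.0898 by the linear model, and the interaction p was 0.0148. Among the runs with 1 replicate left out, the time p stayed below 0.01 only without replicate 6, at 0.00016, and without replicate 2 it was 0.0662. It was 0.0152 with 1 loess curve and 0.566 with the day block, which cannot test the 1 h values. The other POU spots, Pou2f1, Pou2f2, Pou3f1, Pou5f1 and Pou6f1, gave no call.

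The SRY-box gene Sox4, a factor of progenitor survival, changed over time at 1 of its 2 measured spots. Spot 20263 averaged 0.17 ± 0.24 at 1 h and -0.17 ± 0.35 at 24 h, with a p of 0.00414 and an adjusted p of 0.0742 by the linear model, while spot 14744 averaged -0.04 and -0.02 at those times with a p of 0.78. At 24 h the arrays of spot 20263 gave 0.08 to 0.14 with CRH RNA in Cy5 and -0.65 to -0.16 in Cy3. The orientations of this spot had opposite signs on every array at 3, 6, 12 and 24 h, and did not overlap at 1 h either. The p of spot 20263 was 0.0127, 0.0116 and 0.0352 without replicates 1, 2 and 4, 0.0821 with 1 loess curve and 0.116 with the day block. The day block cannot test the 1 h values, where this spot was highest. The 3 spots of Sox9, a factor of progenitors and cartilage, had time p of 0.0993, 0.291 and 0.403 and lay between -0.21 and 0.18 at 24 h.

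Homeobox and paired genes gave no call for change over time among the 16 spots tested. Lhx3, the LIM factor needed for pituitary cell types, averaged 0.31 ± 0.33 at 24 h and -0.09 ± 0.20 at 12 h, with a time p of 0.457 by the linear model. Pax6, the eye and islet factor, averaged 0.17 at 1 h and -0.23 at 3 h, with a time p of 0.233. The measured Hox genes were Hoxa7, Hoxa11, Hoxb5, Hoxb6, Hoxc4, Hoxc5, Hoxc6, Hoxd4 and Hoxd9. Of these Hoxc4 had a mean below 0 at each of the 5 times, between -0.21 and -0.06, with an unadjusted p of 0.0351 and an adjusted p of 0.907 by limma.

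Pitx1, the pituitary homeodomain factor that binds the Pomc gene, could not be read from these arrays in either direction. Its spot had the lowest interaction p of all members, 0.000159. At 3 h the arrays with CRH RNA in Cy5 gave 0.12 to 0.61 and those with CRH RNA in Cy3 gave -1.25 to -0.93. At 24 h the middle array gave 0.72 in Cy5 and -1.20 in Cy3, and at both times the orientations had opposite signs on every array. Foxd3, a forkhead factor of neural crest and stem cells, was split in the same direction, with means of 0.38 in Cy5 and -1.25 in Cy3 at 3 h, and of 1.00 in Cy5 and -0.69 in Cy3 at 12 h, and an interaction p of 0.000223. Prrx1, a mesenchymal homeobox factor, had opposite signs in the orientations at 3, 6, 12 and 24 h but not at 1 h, with a p of 0.000496.

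Such a split was widespread among the members at a smaller size. The difference between orientations, CRH RNA in Cy5 minus CRH RNA in Cy3, kept its sign over all 5 times at 28 members with Cy5 higher and 13 with Cy3 higher, together 51.2%, against 46.3% of all features. Averaged over time its median size was 0.38 over members and 0.30 over all features. It reached at least 1 at 3 members, namely Foxd3 at 1.39, Pitx1 at 1.25 and Pou2f3 at 1.13. For Sox2 it averaged -0.53, with 0.05 at 1 h and -0.82 at 24 h. Both orientations carry equal weight in every mean given here.

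**Figure D4:**
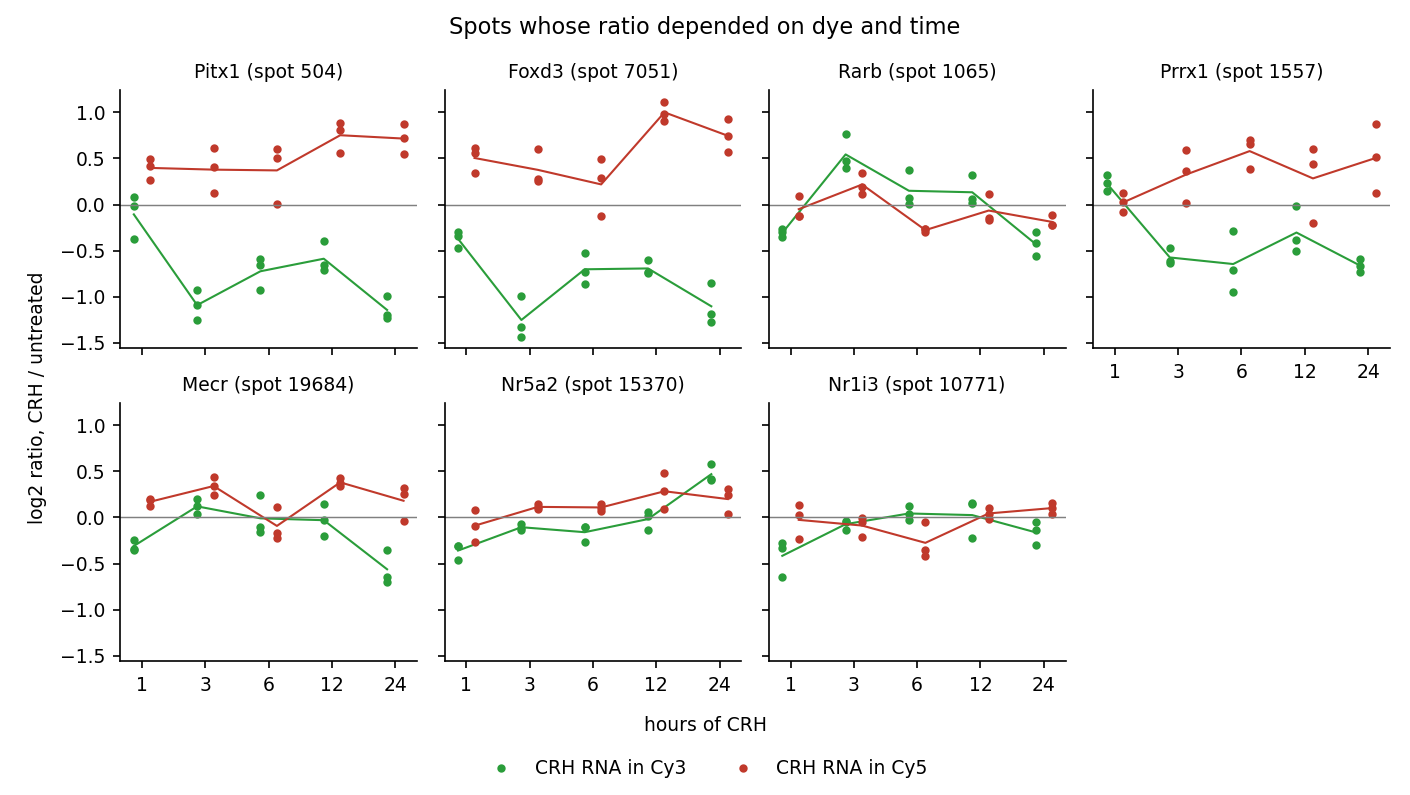
Log2 ratio of CRH-treated over untreated cells (vertical axis) against hours of CRH (horizontal axis) for the 7 spots set aside by the interaction test. Points are single arrays and lines join the means of 3 arrays, with CRH RNA in Cy3 in green and in Cy5 in red; Pitx1 and Foxd3 have opposite signs in the orientations at 3 h and at 24 h, while Rarb has the same sign in both at these times.

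Foxd3 and Pax6, both described above, hold a full cAMP response element in the 250 bases before a start. They are shown for that reason. Foxd3 was set aside by the interaction test and so was not tested for change over time, and Pax6 gave no call. Capitals mark the element, which reads the same on both strands. RefSeq's sequence is given for GRCm38.p6, plus strand, Foxd3 at chr4:99656049-99656298 and one Pax6 start at chr2:105668646-105668895.
Foxd3 promoter: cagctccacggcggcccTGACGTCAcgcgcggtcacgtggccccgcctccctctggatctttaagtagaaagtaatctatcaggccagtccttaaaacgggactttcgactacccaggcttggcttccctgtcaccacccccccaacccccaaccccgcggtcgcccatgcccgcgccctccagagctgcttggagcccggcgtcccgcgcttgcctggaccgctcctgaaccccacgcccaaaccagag
Pax6 promoter: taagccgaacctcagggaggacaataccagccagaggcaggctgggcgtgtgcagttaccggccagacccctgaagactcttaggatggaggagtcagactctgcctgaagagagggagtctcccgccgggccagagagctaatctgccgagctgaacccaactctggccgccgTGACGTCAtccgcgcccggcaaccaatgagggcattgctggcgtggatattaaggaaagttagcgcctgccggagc

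The element lies 233 to 226 bases before the Foxd3 start and 76 to 69 bases before the Pax6 start. It was found in 3 of 109 promoters of member genes, or 2.75%, the other being that of Trip6, and in 508 of 32851 promoters in the whole table, or 1.55%. The shorter form TGACG on either strand was found in 27 of the 109, or 24.8%, and in 17.8% of all. Promoters were at hand for 79 of the 108 genes. A match is a string of letters and does not show that a factor binds there.

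Cofactors and receptor-binding proteins had 23 measured spots, the most of any family. Ebag9, a secretory pathway protein named for a fragment bound by estrogen receptor, changed over time at 1 of its 2 spots. Spot 15539 ran from -0.91 through a median of -0.40 to -0.06 at 1 h, all 6 arrays below 0, and averaged -0.42 ± 0.29, with means between 0.02 and 0.17 later. Its p was 0.00618 and its adjusted p 0.0906 by the linear model, and the p was 0.0164, 0.0257, 0.0221 and 0.0489 without replicates 1 to 4. It was 0.032 with 1 loess curve and 0.705 with the day block, which cannot test the 1 h values. The other spot, 17141, averaged 0.15 at 1 h and had a p of 0.221, and this difference of 0.57 between spots was the largest among the 13 genes with 2 or more measured spots, where the largest difference per gene had a median of 0.34.

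The classical coactivators Ncoa1, Ncoa2, Ncoa3, Ncoa4 and Ncoa6, the Mediator subunit Med1 and the corepressor Nrip1 gave no call over time. The spot 13772 of Ncoa2 was above 0 on all 6 arrays at 3 h, with a mean of 0.35, while its other spot averaged -0.08. In a wider list of coregulators, 0 of 18 measured spots changed over time or had the interaction. Tgs1 and the histone methyltransferase Nsd1 had means above 0 at all 5 times and averaged 0.15 and 0.14, with limma's unadjusted p of 0.0213 and 0.0291 and an adjusted p of 0.907 for both. For Nsd1 this was spot 5238 of 3. Its spots 8124 and 17338 averaged 0.04 and 0.1, with limma's unadjusted p of 0.486 and 0.11. Their means were -0.07 at 3 h and -0.01 at 6 h, respectively. Tgs1, Nsd1 spot 5238 and a spot named only thyroid hormone receptor-associated protein were the 3 members higher with CRH at an unadjusted p below 0.05. Sox2, Foxa1 and Hoxc4 were the 3 lower. The 6 make up 7.5% of members, against 5.44% of all features.

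A trend with the log2 of hours was called for 0 of 80 members, against 0% of features, by limma. At an unadjusted p below 0.05 there were 4 members, Nr5a2, Thra spot 22142, Hoxb6 and Pou2f2 spot 21247, or 5%, against 7.43% of features. The direct comparison of 6 h with 3 h, within their day, called 0 of 73 members at p below 0.01, against 3.02% of features.

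From 1 to 24 h, the members whose 6 arrays all had the same sign numbered 7, 8, 3, 1 and 5, that is 8.75%, 10%, 3.75%, 1.25% and 6.25%. Over all features the shares in that order were 6.34%, 6.87%, 2.66%, 4.45% and 4.56%. With the size lowered to 1.3-fold and the sign still shared by the arrays, 6 pairs of member and time were past it. At 1 h Pou2f3 was higher, against 0.751% of features, and Esr1 and Ebag9 were lower, against 0.953%. Rarb was higher at 3 h, against 1.18%, Foxa1 lower at 6 h, against 0.111%, and Sox2 lower at 24 h, against 0.369%. No member was past it in any other direction or time, where the shares of features were 0.237% lower at 3 h, 0.132% higher at 6 h, 0.696% higher and 0.48% lower at 12 h, and 0.668% higher at 24 h.

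Genes known as targets of these factors were described from lists, and the counts stand beside 8.5% of all features called over time and 14.8% set aside by the interaction test. Of the glucocorticoid receptor targets 16 of 21 spots were measured, 3 were set aside (Sgk1 and 2 spots of Glul), and 3 of the 13 tested changed over time. They were Glul spot 3304, Per1 and Klf9 spot 15338, with adjusted p of 0.00494, 0.0343 and 0.101 by the linear model. The glutamine synthetase gene Glul averaged -0.39 at 3 h on that spot. Its other tested spots, 3005 and 16133, averaged -0.15 and 0.14 at 3 h, with time p of 0.111 and 0.188 by the linear model. Klf9 averaged -0.50 at 12 h on spot 15338, but -0.09 and 0.00 on spots 11683 and 13639. These 2 spots had time p of 0.0809 and 0.59 by the same model. The clock gene Per1 was highest at 12 h, at 0.25, and lowest at 24 h, at -0.28. Of the PPAR targets 9 of 14 spots were measured, 1 was set aside, and 1 of the 8 tested changed, the fatty acid carrier Fabp5, at -0.24 at 1 h and 0.34 at 3 h, with an adjusted p of 0.0159.

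Of the retinoid targets 5 spots were measured, Rarb was set aside and 0 of 4 tested changed. Of the forkhead box O targets 4 spots were measured, Txnip was set aside and 0 of 3 tested changed. In the CRH receptor and cAMP list 18 of 29 spots were measured and 4 were set aside, Gnas, Pomc, Prkar2a spot 21363 and Prkar1a spot 14082. Of the 14 tested 1 changed, spot 22939 of the protein kinase A subunit Prkar1a, which averaged 0.02 at 1 h and 0.32 at 12 h, with a p of 0.00845 and an adjusted p of 0.107 by the linear model. Of the other Prkar1a spots, 16560 and 19559 had time p of 0.0809 and 0.939 and gave no call. The 11 dim spots of this list were Adcy6, Crem spot 2781, Fos, Fosb, Jun, Junb, Jund, Fosl2 spots 4502 and 23164, and Egr1 spots 414 and 9776. The paper reports that Crem and Fosl2 rose within the first hour of CRH. The counts here leave these dim spots out. The measured Crem spot, 7301, had a time p of 0.107 by the linear model. The median over each of these lists lay between -0.21 and 0.07 at every time, and 0 spots of them passed limma for the CRH effect.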

How the data were processed

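For every array the authors deposited Cy3 and Cy5 intensities of all spots, extracted with QuantArray by their methods and with no normalization in the files. They also deposited a table of log2 ratios of 12593 spots, made by the authors after removal of the lowest 10% and a print-tip loess fit. Its columns correlated positively with the scanner ratios of CRH-treated over untreated cells on all arrays (r from 0.605 to 0.927 across spots), which settles their direction.

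Here intensities were used without background subtraction. Spots in the lowest 10% of a channel on any of the 30 arrays were left out of tests (14375 of 22830 gene spots stayed). Log2 ratios were normalized by loess in each of 48 print-tip blocks (span 0.75) and turned to CRH over untreated. Linear models over 30 arrays gave F tests of the time-by-dye interaction and of time, as in the study's methods, at p below 0.01 and after Benjamini-Hochberg adjustment. limma 3.58.1 in R 4.3.3 was run on 1 average per time point, for the mean and for the slope on log2 hours. Each adjusted p was adjusted over all features tested, which for time were those not set aside by the interaction test. A p not called adjusted is unadjusted. The steps were tested on simulated data.

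Members named with values are those past the tests or the size rule, the 5 with the lowest interaction p, and a list of pituitary and CRH related factors; others shown for a shared sign on 6 arrays or an unadjusted p were chosen after their values were seen. The members and lists were chosen with earlier results of these data known. Alternatives were normexp background subtraction (offset 50), no filter, 1 loess curve per array, the deposited ratios, leaving out replicates or times, a replicate block, a day block and hours as a number. Gene positions and promoters are RefSeq's, matched by symbol for 108 genes. Values of some members that the naming rule takes are not reported here.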

Additional observations from a re-analysis of the deposited data

Results flagged for a closer look

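At 1 of 140 groups of 6 arrays, among the 28 spots described by the naming rule, a single array stood apart from the others. This was replicate 1 of Thra spot 16513 at 3 h, with a log2 ratio of -0.29 where the other 5 arrays lay between -0.01 and 0.15. Chance gives such a gap in about 1 of 20 groups when all 6 values come from a single normal distribution. Each group here pools both dye orientations, which often differ, so that rate may not hold for them.

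The CRH response differed between time points at 7 members, 6 of which are given here, by the F test of time in the linear model. The p-values were 0.00291 for Foxa1, 0.00414 for Sox4 spot 20263, 0.00609 for Pou2f3, 0.00618 for Ebag9 spot 15539, 0.00639 for Esr1 and 0.00988 for Rxrb. The lowest and highest of the 5 means were -0.42 and 0.01 for Foxa1, -0.17 and 0.17 for Sox4, -0.33 and 0.38 for Pou2f3, -0.42 and 0.17 for Ebag9, -0.44 and 0.20 for Esr1, and -0.26 and 0.28 for Rxrb.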

How the results depend on the processing

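Of the calls for change over time of single members under the alternatives, 301 stayed as in the main run, 47 no longer passed and 5 newly passed. A call needs a p below 0.01 and no interaction under the same setting. A p alone can thus cross the threshold without a change of call. All 47 belonged to the 7 members called in the main run, and most of the 301 to members that were not called there. The interaction called 11 members without the dim filter, in place of 7, and 5 to 11 without single replicates. Change over time was called for 4 members with 1 loess curve per array, of which Foxa1 and Rxrb were among the 7, for 2 with hours as a number (Sox2 and Sox4), for 1 with the day of quantification as a block (Trip10), for 0 in the comparison of 6 h with 3 h chosen after seeing the data, and for 2 to 7 without single replicates. After adjustment the count of 1 became 0 without the dim filter, with hours as a number and with the day block, 2 with 1 loess curve and with the deposited ratios, 4 with interaction members kept, and 0 to 2 without single replicates. The CRH effect by limma called 1 member, Sox2, without 1 h and 1, again Sox2, without 3 h, in place of 0. Its adjusted p was 0.149 with normexp, 0.125 with 1 loess curve, 0.0799 with the deposited ratios and 0.649 without the dim filter. The size rule called 2 without the filter, Sox2 and the dim Sox17, 6 at 1.3-fold, and 0 to 1 without single replicates, 0 being without replicate 4.

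With the replicate number as a block, the interaction called 8 members and time 5, all 5 among the 7, with 0 after adjustment. The numbers do not pair the samples: deviations of arrays of the same number correlated between -0.171 and 0.0911, with a median of -0.0742. The 65 dim members have no value here, and the spread between cultures is not in these arrays.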
